A study of Mus musculus with 12 samples.

Results

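Glutamate is cleared from the synapse by carriers of the plasma membrane and packed into vesicles by carriers of the vesicle membrane. The 6 genes described here are the vesicular transporters Slc17a6, Slc17a7 and Slc17a8 and the plasma membrane transporters Slc1a1, Slc1a2 and Slc1a3, out of 19057 genes that the platform annotation names. They were taken by gene symbol, which gave 13 of the 45281 probes on the array. After the filter on low values, 10 of these 13 were among the 20172 probes kept, with at least 1 probe for each of the 6 genes.

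The arrays measured RNA of whole hippocampus from female C57BL/6J mice aged 12 weeks, with 6 arrays in the EtOH group and 6 in the Control group. By the labels, EtOH mice were born to dams that drank ethanol by choice, at 10% (v/v), between day 0.5 and day 8.5 after mating. That protocol text stands on all 12 samples, and the labels do not say what Control dams drank. The titles, source names and treatment labels all give the same group for each array. The intake of each dam and which mice were littermates are not stated, so siblings may be counted as separate samples and the p-values measure the spread between arrays only. The question asked of these genes was whether adult hippocampal transcripts of glutamate handling differ after such early exposure.

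Vesicular glutamate transporters load the transmitter into synaptic vesicles, driven by the proton gradient of the vesicle membrane. VGLUT1, from Slc17a7, is the main form of hippocampal pyramidal and granule cells. VGLUT2, from Slc17a6, is typical of thalamus, brainstem and retrosplenial cortex, and VGLUT3, from Slc17a8, is found in some interneurons and in serotonergic neurons. The plasma membrane carriers take up glutamate with sodium: GLT-1 (Slc1a2) and GLAST (Slc1a3) mainly in astrocytes, and EAAC1 or EAAT3 (Slc1a1) in neurons. Astrocytes turn the glutamate into glutamine, which neurons use again.

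The arrays had median raw intensities of 126 to 146.9 and 19748 to 20858 detected probes each. By their titles the arrays lay on 2 chips of 6, with 4 EtOH and 2 Control arrays on chip 1 and 2 EtOH and 4 Control arrays on chip 2. All 4 CA1 markers and all 5 CA2 and CA3 markers were measured, with 4 of 8 markers of dentate granule cells. Choroid plexus RNA, from the ventricle beside the hippocampus, set 4 arrays apart: Ttr stood between 15.39 and 15.47 on the log2 scale in EtOH 2, EtOH 4, Control 2 and Control 4 and at most at 11.57 in the others. The choroid plexus list (5 of 10 measured, with Ttr, Kl and Clic6 brightest) had 5 of 5 genes lower in EtOH with the chip in the fit. Of these 0 passed the test. Plain means were lower in EtOH for Ttr (11.34 against 11.60) and Clic6 (7.44 against 7.53). They were higher in EtOH for Kl (8.51 against 8.38), Calml4 (6.10 against 6.01) and Trpv4 (5.73 against 5.65), so the direction depends on the chip term. The mean of the list ran from 6.43 to 10.72 in EtOH and from 6.23 to 10.85 in Control. Genes of the meninges and vascular fibroblasts (9 of 9 measured) were lower in EtOH for 7 of 9, with a median difference of -0.45. Of these 9 genes 3 had an unadjusted p under 0.05, against 3.48% of all kept probes, and 0 passed the adjusted test. The mean of this list ran from 7.77 to 8.87 in EtOH and from 8.06 to 9.19 in Control. The 4 arrays set apart by choroid plexus RNA were also the highest for this list, at 8.79 to 9.19, against at most 8.37 in the others. Of the relations of the 6 transporters to this list, 0 passed after adjustment over 65 relations. As the list divides the arrays into separate sets, a pooled correlation cannot show whether a relation is present or absent. Without the 4 arrays rich in choroid plexus RNA, the group difference was -0.0069 for Slc17a7, 0.036 for Slc17a8, -0.032 for Slc1a1, 0.0031 for Slc1a2 and 0.092 for Slc1a3, and the value for Slc17a6 is given with that gene. In whole tissue, fewer cells of a type and less RNA per cell cannot be told apart.

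Slc17a6 (VGLUT2) was the transporter that varied most from mouse to mouse. All log2 values below are background-corrected, quantile-normalized intensities. In EtOH its lowest, median and highest values were 10.07, 11.00 and 11.73, and in Control 9.39, 10.76 and 11.27. EtOH 1 and EtOH 2 were highest and Control 2 was lowest, and the groups overlapped over most of their range. On the raw scale the same probe (ILMN_2922321) read from 647.5 in Control 2 to 3819.9 in EtOH 1, and the normalized values spanned 5.07-fold. The second probe (ILMN_2773047) followed the first closely (Pearson r = 0.995 and Spearman rho = 0.986 over 12 arrays, permutation p = 1e-05 for each, the smallest that 100000 resamples can give, and 0.000217 for r after adjustment over 65 relations). Without the 2 arrays farthest from the median r was 0.989, and it was 0.999 within chip 1 and 0.978 within chip 2.

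The group means of Slc17a6 were 10.94 ± 0.72 in EtOH and 10.63 ± 0.66 in Control (SD, n = 6 each). The chip-adjusted difference of 0.35 corresponds to 1.28-fold, with a 95% interval from 0.721-fold to 2.26-fold. It was smaller than the SD of either group, and the Control median was exceeded by 3 of 6 EtOH arrays. The difference did not pass (limma unadjusted p = 0.372, adjusted p = 1.00). It rested on Control 2: without that array the difference was -0.087, and without the 4 arrays carrying choroid plexus transcripts, of which Control 2 is 1, it was -0.019. The interval holds 1-fold as well as all changes between its limits.

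**Figure D1:**
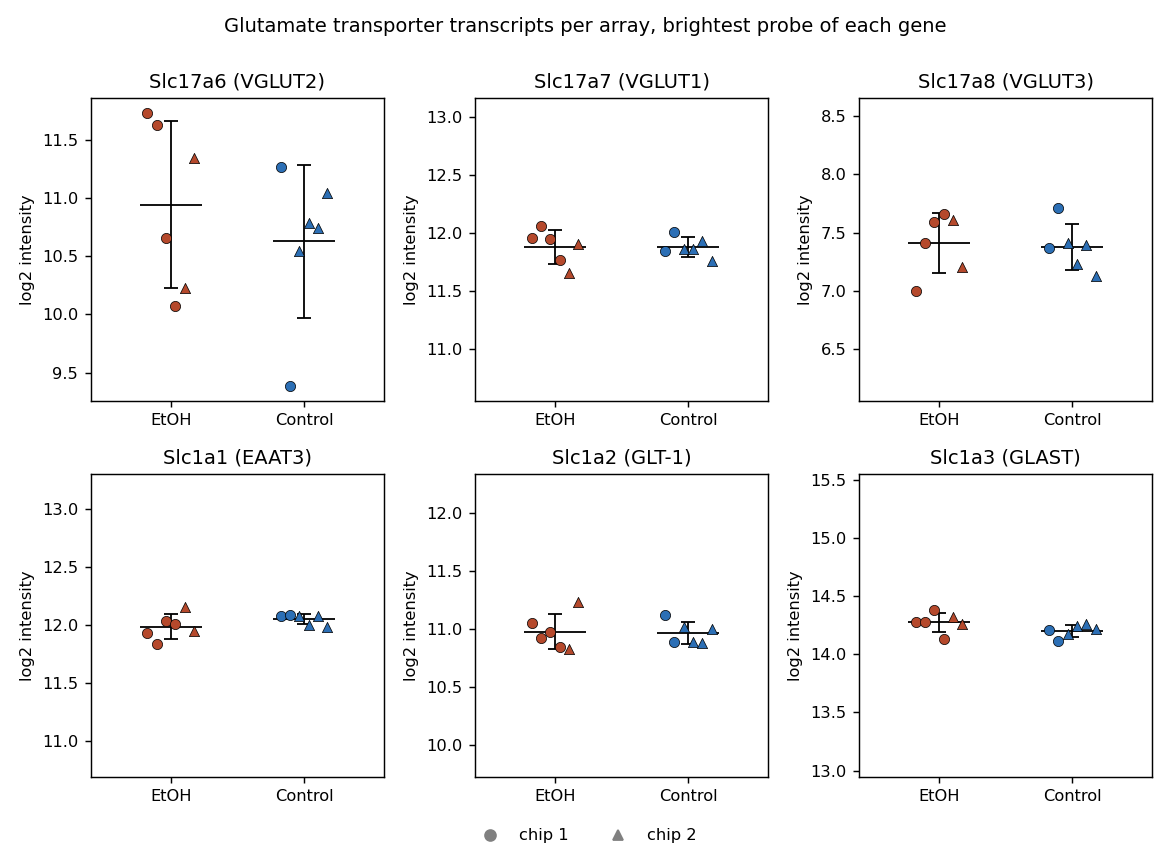
Log2 intensity of the brightest probe of each transporter gene on each of the 12 arrays, by group, with circles for chip 1 and triangles for chip 2, and with bars for the mean ± SD of 6 arrays. Every panel spans the same log2 height, so the wide scatter of Slc17a6 (9.39 to 11.73) can be set against the narrow scatter of Slc1a3 (14.12 to 14.38).

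Slc17a7 (VGLUT1) was nearly level across mice. In EtOH it ran from 11.66 through a median of 11.93 to 12.06, and in Control from 11.76 through 11.86 to 12.01. The EtOH values enclosed all Control values, with EtOH 5 lowest and EtOH 2 highest. The means were 11.88 ± 0.14 in EtOH and 11.88 ± 0.084 in Control (SD, n = 6 each). The difference was -0.033 on the log2 scale, or 0.977-fold (95% interval 0.876-fold to 1.09-fold), and it changed sign with median scaling (0.035).

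Slc17a8 (VGLUT3) was measured near the low end of the scale but was detected on 12 of 12 arrays, with raw intensities from 228.6 to 312.7. In EtOH it ran from 7.00 through a median of 7.50 to 7.66, and in Control from 7.13 through 7.38 to 7.71. Control 2 had the highest VGLUT3 value and EtOH 1 the lowest, the reverse of their places for VGLUT2. The difference was -0.0053 (0.996-fold, 95% interval 0.820-fold to 1.21-fold), a value that turned to 0.043 with median scaling.

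Slc1a3 (GLAST), the glutamate carrier of astrocytes and radial glia, had the smallest unadjusted p among the brightest probes of the 6 genes. In EtOH it ran from 14.13 through a median of 14.28 to 14.38, and in Control from 14.12 through 14.21 to 14.26. EtOH 4 was the 1 EtOH array below the Control median, and the other 5 lay above every Control array. The means were 14.28 ± 0.083 in EtOH and 14.20 ± 0.052 in Control (SD, n = 6 each). The difference of 0.087 amounts to 1.06-fold (95% interval 0.974-fold to 1.16-fold). It did not pass: the exact permutation of group labels within chips gave a two-sided p of 0.0622, and limma gave an unadjusted p of 0.157 and an adjusted p of 1.00. It was 0.10 within chip 1 and 0.071 within chip 2.

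Slc1a2 (GLT-1), which carries most glutamate uptake in the forebrain, was read by 3 kept probes that the platform ties to different transcripts of the gene. The brightest (ILMN_3076439) ran from 10.83 through a median of 10.95 to 11.24 in EtOH and from 10.88 through 10.94 to 11.12 in Control. EtOH 6 was the highest array and EtOH 5 the lowest, so the EtOH values again enclosed all Control values. The difference was 0.015, or 1.01-fold (95% interval 0.891-fold to 1.15-fold). The second probe (ILMN_3123195) differed by 0.034. The third (ILMN_2642339), near background and detected on 11 of 12 arrays, differed by 0.27 (95% interval -0.090 to 0.64), with means of 6.00 ± 0.21 in EtOH and 5.81 ± 0.40 in Control (SD, n = 6 each).

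The 3 GLT-1 probes followed each other only loosely. The pair of brighter probes had r = 0.607 and rho = 0.559 over 12 arrays (permutation p = 0.0374 and 0.0636, and 0.152 for r after adjustment over 65 relations), with r = 0.614 without the 2 arrays farthest from the median, 0.899 within chip 1 and 0.598 within chip 2. A further pair of Slc1a2 probes was not above background by the filter, with detection on 1 and on 0 of 12 arrays. The platform ties 1 of them to the same transcript as the second kept probe.

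Slc1a1 (EAAT3), the neuronal carrier, ran from 11.84 through a median of 11.98 to 12.15 in EtOH and from 11.99 through 12.08 to 12.09 in Control. The Control arrays lay close together and 5 of 6 EtOH arrays were below their median, while EtOH 5 was the highest array of all. The means were 11.99 ± 0.11 in EtOH and 12.05 ± 0.045 in Control (SD, n = 6 each). The difference was -0.057, or 0.961-fold (95% interval 0.873-fold to 1.06-fold, exact permutation within chips p = 0.284), and it was 0.0075 with median scaling. The second probe (ILMN_1229397) differed by -0.058, and the third was detected on 3 of 12 arrays and left out.

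Across the 6 genes, limma called 0 of 10 kept transporter probes at an adjusted p under 0.05, as it called 0% of all 20172 kept probes. At an unadjusted p under 0.05 it gave 0 of 10 transporter probes, against 3.48% of all kept probes (354 higher and 348 lower; 408 and 162 with median scaling). The groups overlapped for 10 of 10 transporter probes, and 0.134% of all kept probes had groups that did not overlap. The exact permutation within chips gave p = 0.462 for Slc17a6, 0.613 for Slc17a7, 0.973 for Slc17a8 and 0.867 for Slc1a2. Among the brightest probes Slc17a6 had the widest interval and Slc17a8 the next.

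The chips did not part the transporters: 0 of 10 probes passed the chip term at an adjusted p under 0.05, against 0.773% of all kept probes. Within chips the Slc17a6 difference was 0.70 on chip 1, which holds Control 2, and 0.0072 on chip 2. Slc1a1 differed by -0.13 and 0.014 on the 2 chips, Slc1a2 by -0.054 and 0.084, Slc17a7 by 0.0047 and -0.072, and Slc17a8 by -0.12 and 0.11. The group difference was not shown to vary with the chip for any of the 6 genes, as the interaction term of limma gave unadjusted p-values from 0.278 to 0.786 and an adjusted p of 1.00 for each. That term was chosen after the data were seen.

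**Figure D2:**
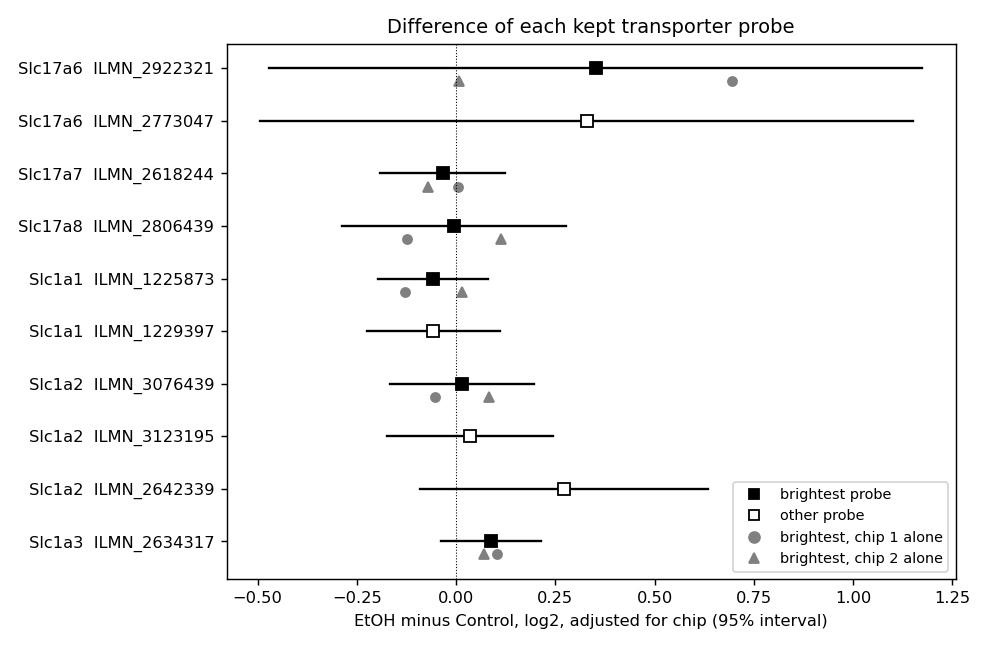
EtOH minus Control on the log2 scale for the 10 kept transporter probes, as squares with 95% intervals, filled for the brightest probe of a gene, with grey symbols for chip 1 alone (circles) and chip 2 alone (triangles). Every interval crosses 0, and those of both Slc17a6 probes are the widest.

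The spread over the 12 arrays set VGLUT2 apart from the other 5 transporters. The SD of Slc17a6 was 0.68 on the log2 scale, at the 99.5th percentile of all kept probes, whose median SD was 0.17. Slc17a8 stood at the 70.8th percentile with an SD of 0.22. The SDs of Slc1a2 and Slc17a7 were 0.12 and 0.11, at the 27.0th and 22.2nd percentiles. Slc1a1 and Slc1a3 were among the steadier transcripts, at percentiles 8.92 and 5.28 with SDs of 0.086 and 0.076. Bright probes tend to vary less on such arrays, and these percentiles are not adjusted for brightness.

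**Figure D3:**
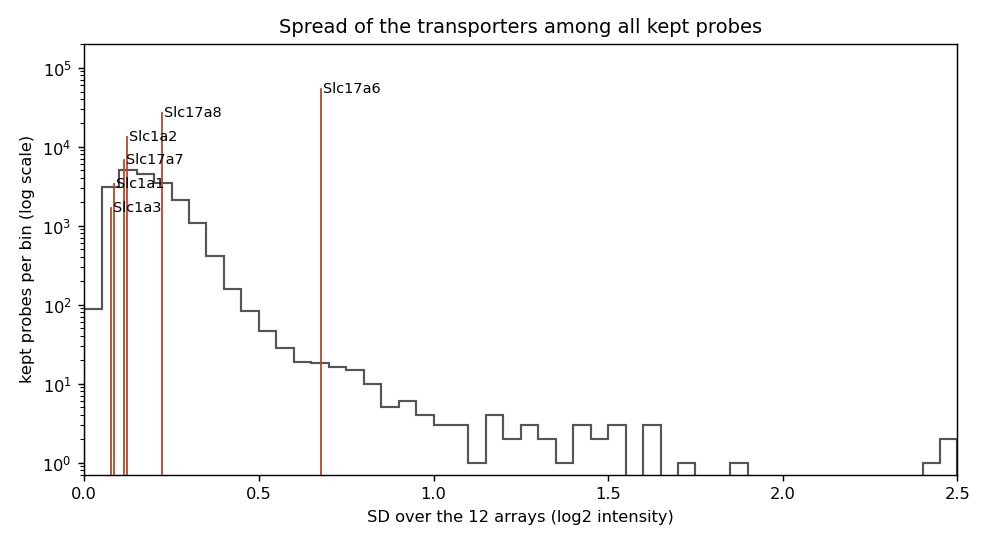
SD of log2 intensity over the 12 arrays for the 20172 kept probes (grey outline, counts on a log scale, values over 2.5 in the last bin), with red lines at the brightest probe of each transporter. Slc17a6, at 0.68, lies in the far tail, and the other 5 genes lie between 0.076 and 0.22.

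The genes most like each transporter were taken as the 3 with the highest Pearson r over the 12 arrays among 10930 other genes, 1 probe a gene. For Slc17a6 these were Vwc2l, a secreted protein gene (r = 0.991), Tshz2, a zinc finger gene marking retrosplenial cortex (0.978), and Garnl3 (0.965). Vwc2l ran from 6.22 in Control 2 to 9.12 in EtOH 1, the same lowest and highest arrays as Slc17a6, and Tshz2 from 6.78 to 9.59. Within chips r was 0.994 and 0.987 for Vwc2l and 0.990 and 0.994 for Tshz2. In all, 44 genes had an r over 0.9 with Slc17a6, against 6 with Slc1a1, 1 with Slc17a8, 1 with Slc1a3 and 0 with Slc17a7 and Slc1a2. With 12 arrays and 10930 genes the highest r is large for any transcript, so these values are descriptions and carry no test.

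For Slc1a1 the most alike were Rgs14, a regulator of G protein signalling and marker of CA2 pyramidal cells (r = 0.946), Bmp1 (0.914) and the kinase gene Mast3 (0.911). Rgs14 was lowest in EtOH 2 and highest in EtOH 5, as Slc1a1 was. The second Slc1a1 probe followed Rgs14 less closely, with r = 0.528 and rho = 0.343 over 12 arrays (permutation p = 0.0748 and 0.277, and 0.204 for r after adjustment over 65 relations), 0.372 without the 2 arrays farthest from the median, 0.878 within chip 1 and -0.227 within chip 2. Its relation to the brighter Slc1a1 probe did not pass either (r = 0.390, rho = 0.350, permutation p = 0.211 and 0.267, adjusted 0.335 for r; 0.353 without the 2 farthest arrays, 0.841 within chip 1 and -0.323 within chip 2). The likeness to Rgs14 therefore rests on 1 of the 2 kept Slc1a1 probes.

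**Figure D4:**
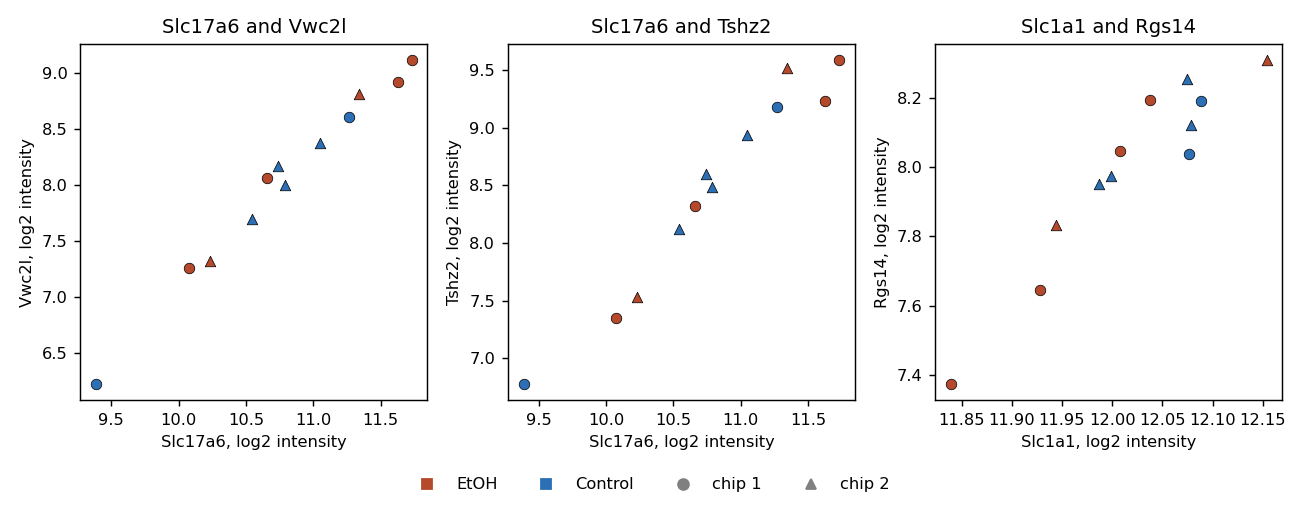
Log2 intensity of Slc17a6 against Vwc2l and against Tshz2, and of Slc1a1 against Rgs14, with 1 point for each of the 12 arrays, coloured by group and shaped by chip. The points of both groups and both chips lie along 1 line in the first and second panels, from Control 2 at the lower left to EtOH 1 at the upper right.

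The remaining transporters had looser companions. Slc17a8 was most like Fcsk (fucokinase, r = 0.923), the kinase gene Nek9 (0.888) and Itpk1 (0.886), and Slc17a7 was most like the diacylglycerol kinase gene Dgke (0.885), Rer1 (0.872) and Trmt112 (0.834). Slc1a2 was most like the co-chaperone gene Dnajb2 (0.895), Tmem44 (0.888) and Pramel34 (0.886), the last near background at 4.96 to 5.88. Slc1a3 was most like the coatomer gene Copg1 (0.904), the mitochondrial carrier gene Slc25a42 (0.896) and Cd86 (0.863).

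Marker lists of neighbouring tissue were set beside the transporters. The list for retrosplenial cortex and subiculum, whose 6 of 6 genes were measured, had a mean from 7.33 to 8.28 in EtOH arrays and from 7.18 to 8.21 in Control arrays. It moved with Slc17a6 (r = 0.957, rho = 0.951 over 12 arrays, permutation p = 1e-05 for each, the smallest possible, and 0.000217 for r after adjustment over 65 relations). The r was 0.944 without Control 2 and EtOH 1, 0.973 within chip 1 and 0.976 within chip 2. Without Tshz2 in the list it was 0.926 (rho = 0.888, permutation p = 1e-05 and 0.00031, adjusted 0.000217 for r; 0.911 without the same 2 arrays, 0.951 and 0.934 within chips). With the list mean as a covariate, the Slc17a6 difference was 0.20 (95% interval -0.0038 to 0.40, limma adjusted p = 1.00). Slc1a2 moved with the full list too (r = 0.715, rho = 0.769, permutation p = 0.00975 and 0.0051, adjusted over 65 relations 0.0634 for r and 0.0474 for rho), so it passed on ranks alone. For Slc1a2 the r was 0.646 without Control 1 and EtOH 6, 0.776 within chip 1 and 0.855 within chip 2. These relations were computed after the likeness to Tshz2 had been seen.

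Markers of neocortex, which lies above the hippocampus, also followed Slc17a6. The list had 6 of 10 genes measured, and its mean ran from 8.64 to 9.28 in EtOH and from 8.61 to 8.97 in Control, highest in EtOH 1 and EtOH 2 and lowest in Control 2. Its r with Slc17a6 was 0.887 (rho = 0.930 over 12 arrays, permutation p = 0.00011 and 5e-05, adjusted 0.00179 for r over 65 relations; 0.905 without Control 2 and EtOH 1, 0.952 and 0.781 within chips). In EtOH 5 of the 6 genes were higher and 1 lower (6 and 0 with median scaling), and 0 passed the adjusted limma test. Cux2, a gene of upper cortical layers named after its values were seen, differed by 0.50 (95% interval 0.094 to 0.90). It was the 1 neocortex gene of 6 with an unadjusted p under 0.05, against 3.48% of all kept probes. Of the 6 transporters, Slc17a6 was the 1 whose relation to this list passed. Whether the others differed from it in that was not tested. The interneuron list (11 of 11 measured) had the same extreme arrays, with a mean highest in EtOH 2 and EtOH 1 (10.47 in each) and lowest in Control 2 (10.12). In EtOH 10 of its genes were higher and 1 lower with the chip in the fit, and 0 passed the adjusted limma test. The 1 lower gene, Npy, named after its values were seen, differed by -0.16 (95% interval -0.30 to -0.026). It was the 1 gene of 11 with an unadjusted p under 0.05, against 3.48% of all kept probes. Plain means were lower in EtOH for Gad1 (12.64 against 12.65) and Sst (12.87 against 12.92) too. The relation of the interneuron list to Slc17a6 was not tested, so the course of Slc17a6 is not shown to be particular to cortical markers.

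The thalamus and habenula list, another tissue rich in VGLUT2, moved less with Slc17a6 (r = 0.432, rho = 0.385, permutation p = 0.160 and 0.218, adjusted 0.310 for r over 33 relations; 0.635 without the 2 farthest arrays, 0.447 and 0.375 within chips). Of its 15 genes 10 were measured and Lef1, Gbx2, Synpo2, Pou4f1 and Plekhg1 were not, and its mean lay between 7.63 and 8.13 in EtOH and between 7.68 and 7.92 in Control. It had 4 genes higher and 6 lower in EtOH (5 and 5 with median scaling), with 0 past the test. Its brightest members were Calb2, Ntng1 and Rora, and the Slc17a6 difference was 0.37 with this list mean as a covariate. Whether this list and the retrosplenial and subiculum list differed in their relation to Slc17a6 was not tested.

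The CA2 and CA3 list, with 5 of 5 genes measured, moved with Slc1a1 (r = 0.841, rho = 0.741 over 12 arrays, permutation p = 0.00039 and 0.00752, adjusted over 65 relations 0.00507 for r and 0.0543 for rho). The r was 0.840 without EtOH 2 and EtOH 5, 0.873 within chip 1 and 0.751 within chip 2. Its mean ran from 9.29 to 9.71 in EtOH and from 9.56 to 9.76 in Control, and 5 of 5 genes were lower in EtOH, with a median difference of -0.15, against 0.0025 over all kept probes. Of these 1 had an unadjusted p under 0.05, against 3.48% of all kept probes, and 0 passed the adjusted limma test. With this mean as a covariate the Slc1a1 difference was 0.0089. The covariate and the relations to this list were chosen after the data were seen. The list holds Rgs14, the gene most like this Slc1a1 probe, so these values are not independent of that likeness. The second Slc1a1 probe followed neither Rgs14 nor the brighter probe past the test. Without Rgs14 the list had r = 0.743 with Slc1a1 (rho = 0.629, permutation p = 0.00499 and 0.0314, adjusted 0.0405 for r; 0.806 without the same 2 arrays, 0.797 and 0.598 within chips), and on ranks it did not pass (adjusted permutation p = 0.12 for rho). The full list also ran opposite to Slc17a6 (r = -0.738, rho = -0.734, permutation p = 0.00612 and 0.0091, adjusted 0.0442 for r and 0.0591 for rho; -0.711 without Control 2 and EtOH 1, -0.813 and -0.716 within chips). The dentate granule cell list (4 of 8 measured, 1 higher and 3 lower in EtOH) shared its extreme arrays with Slc1a1. Its mean was lowest in EtOH 2 (8.51) and highest in EtOH 5 (9.25). Its relation to Slc1a1 was not tested, so the course of Slc1a1 is not shown to be particular to CA2 and CA3 markers.

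Astrocyte genes and the astrocytic carriers did not move together past the threshold. The astrocyte list (13 of 14 measured, Mlc1 not; Aldoc, Gja1 and Ntsr2 brightest) had a mean from 10.36 to 10.54 in EtOH and from 10.41 to 10.49 in Control, with 7 genes higher and 6 lower (11 and 2 with median scaling), 0 past the test and a median difference of 0.0089. Slc1a2 followed it with r = 0.589 (rho = 0.580, permutation p = 0.0441 and 0.0521, adjusted 0.242 for r over 33 relations; 0.142 without the 2 farthest arrays, 0.451 and 0.784 within chips), a relation that rested on Control 1 and EtOH 6. Slc1a3 had r = 0.120 with the list (rho = 0.116, permutation p = 0.711 and 0.718, adjusted 0.838 for r; 0.432 without the 2 farthest arrays, 0.137 and 0.0305 within chips). Slc17a6, not an astrocytic carrier, had r = 0.617 with the astrocyte list (rho = 0.699, permutation p = 0.032 and 0.0138, adjusted 0.242 for r over 33 relations). That r was 0.823 without Control 2 and EtOH 1, and 0.645 and 0.643 within chips. The course of Slc1a2 is therefore not shown to be particular to astrocytic carriers, and whether the 2 relations differed was not tested. The choroid plexus list divides the arrays into separate sets, so no pooled r is given for it.

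Among the 15 pairs of transporters, 0 passed after adjustment over the 33 relations. The closest was the opposite course of VGLUT2 and VGLUT3 (r = -0.801, rho = -0.804 over 12 arrays, permutation p = 0.00178 and 0.0026, adjusted 0.0587 for r). The r was -0.648 without Control 2 and EtOH 1, -0.850 within chip 1 and -0.887 within chip 2. Over all 65 relations, which include the 32 added ones, its adjusted p was 0.0165, so its side of the threshold depends on the family of relations. VGLUT3 also ran opposite to the retrosplenial and subiculum list (r = -0.814, rho = -0.846, permutation p = 0.00133 and 0.0011, adjusted 0.0144 for r over 65 relations; -0.750 without the same 2 arrays, -0.810 and -0.847 within chips). Slc17a6 and Slc1a1 had r = -0.691 (rho = -0.755, permutation p = 0.0133 and 0.00629, adjusted 0.220 for r; -0.673 without the same 2 arrays, -0.674 and -0.949 within chips). GLT-1 and GLAST, both of astrocytes, had r = 0.0925 (rho = 0.042, permutation p = 0.772 and 0.899, adjusted 0.848 for r; 0.137 without the 2 farthest arrays, 0.405 and -0.321 within chips).

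The genes that supply and recycle glutamate showed no group difference past the test either. Of 20 listed genes of the glutamate and glutamine cycle 15 were measured, with 7 higher and 8 lower in EtOH, 0 past the limma test and a median of -0.039. With median scaling 9 were higher and 6 lower, with a median of 0.028, as that scaling moved the median of all kept probes from 0.0025 to 0.055. Slc3a2, the heavy chain of the cystine and glutamate exchanger, differed by -0.18 (95% interval -0.38 to 0.022), with 1 EtOH array over the Control median. Its level was low, with means of 5.93 in EtOH and 6.08 in Control. Glul, the glutamine synthetase of astrocytes, differed by 0.15 with the chip in the fit, while its plain means were 7.22 ± 0.23 in EtOH and 7.25 ± 0.39 in Control (SD, n = 6 each). Glud1 (glutamate dehydrogenase) differed by 0.082, and both of its other probes had the opposite sign.

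Of the other Slc1 and Slc17 genes, 4 of 10 were measured, with 2 higher and 2 lower, 0 past the test and a median of -0.010 (0.037 with median scaling). Slc1a6, which encodes EAAT4 of Purkinje cells, differed by 0.20 (95% interval -0.12 to 0.53), and 6 of 6 EtOH arrays exceeded the Control median. Its level was low, with means of 6.22 in EtOH and 6.01 in Control. Slc17a5, the lysosomal sialic acid carrier, differed by -0.057 and Slc1a7 (EAAT5) by -0.036, the last at 5.64 and 5.71 in the 2 groups, close to background.

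A further list held genes of the glutamatergic synaptic vesicle together with vesicular transporters of other transmitters. It had 11 of 14 members measured, 8 higher and 3 lower (11 and 0 with median scaling), 0 past the test and a median of 0.023. Slc32a1, the vesicular transporter of GABA, was among the higher genes, at 0.062. Syn1 (synapsin I, which tethers vesicles) differed by 0.12 (95% interval -0.021 to 0.26), and 6 of 6 EtOH arrays exceeded the Control median, but its other probe had the opposite sign. Atp6v1a, a subunit of the proton pump that powers VGLUT, differed by 0.12 and the chloride carrier gene Clcn3 by 0.055. Of 7 listed partners of the plasma membrane carriers 3 were measured: the sodium pump subunits Atp1b2 at 0.17 (95% interval -0.018 to 0.35) and Atp1b1 at -0.042, and the scaffold gene Slc9a3r1 at 0.044. Their median was 0.044, and 0 passed the test.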

How the data were processed

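RNA of 12 hippocampi was measured on 1-colour Illumina bead arrays. The deposited table holds the intensity of each probe on a linear scale, not normalized, with the deposited detection p-value of each probe, per the file headers. Per the submitters' processing notes GenomeStudio 1.9.0 was used, and other steps are not given in the sources used here. A further deposited table of intensity values ranked probes like the same arrays (lowest Spearman correlation 1.00, against at most 0.932 with another array) with medians of 135.6 to 135.7, so it was read as quantile-normalized. It served as an alternative, and its exact processing is unknown. Correlation between arrays ran from 0.983 to 0.994, and no array repeated another.

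Intensities were corrected and quantile-normalized by the neqc function (R 4.3.3, limma 3.58.1; an offset of 16 shrinks differences of dim probes). Probes with a detection p-value under 0.05 on at least 6 of 12 arrays were kept. Groups were compared by two-sided limma tests that held chip as a fixed covariate, with Benjamini-Hochberg adjustment over all kept probes (threshold 0.05). The fit was tested on simulated data. Differences are EtOH minus Control, adjusted for chip, and group means are not adjusted. The brightest probe stood for a gene, and other probes are named where they disagree. Correlations used numpy 2.4.6 and 100000 permutations, over 33 planned and 32 added relations. The platform annotation gave 1 gene symbol for 34885 probes, several for 18 and none for 10378, and probes with several were left unnamed. The probes' own sequences and genome build were not used here.

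The members and lists were chosen with earlier results of these data known. Genes are named by rule: all members, the 3 genes with the smallest p of each pathway list, the 3 most like each member, and the 3 brightest of the thalamus, astrocyte and choroid plexus lists. Same-numbered arrays of the groups were not treated as pairs, as the labels state no pairing. The correlation of their deviations from the group means ran from 0.0789 to 0.268, and 1 of 6 was under 0.1. With the chip taken out as well it ran from -0.130 to 0.244. These values do not decide whether the arrays are paired. With the replicate number as a block the Slc17a6 difference was 0.62 (95% interval -0.28 to 1.53). The number of arrays limits the precision, with a median half-width of the 95% interval of 0.20 on the log2 scale.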

Additional observations from a re-analysis of the deposited data

Results flagged for a closer look

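Each kept transporter probe, and the brightest probe of each pathway gene named, was searched within each group for an array standing far off. Of these 44 searches 2 found one. The companion genes and the marker genes were not searched. Chance gives about 1 in 20 for independent measures. The second Slc17a6 probe (ILMN_2773047) was lowest in Control 2, at 9.17 on the log2 scale against 10.42 for the nearest Control array, a gap of 0.665 of the range of the group. Slc1a7 was lowest in EtOH 3, at 5.00 against 5.56 for the nearest, a gap of 0.634 of the range, at a level close to background.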

How the results depend on the processing

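Limma called 0 probes, and 0 transporter probes, at an adjusted p under 0.05 in every alternative run for these counts. A threshold of 0.1 was tried for all probes with the settings of the report alone and gave 0. Leaving out Control 2 gave the smallest adjusted p of any probe, 0.071. Transporter probes at an unadjusted p under 0.05 also stayed at 0. All probes at that level numbered 458 with the stricter detection filter and 1913 with none, against 702. Median scaling gave 71.6% of them higher, against 50.4%. Slc1a3 kept its sign in 25 of 25 alternatives (0.066 to 0.13).

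The other differences, each short of the test, changed sign as follows, and for these the cause was not tested. Slc17a6 was -0.087 to 0.65 with 1 array left out, negative without Control 2, and -0.019 without the 4 choroid plexus arrays. Slc17a7 was 0.035 with median scaling, 0.0045 without the chip term, 0.0047 within chip 1 and 0.0096 with the replicate number as a block, and -0.073 to 0.022 with 1 array left out, positive without EtOH 5. Slc17a8 was 0.043 with median scaling, 0.038 without the chip term, 0.027 with the chip as a random block, 0.11 within chip 2, 0.013 with array weights and 0.036 without the choroid plexus arrays, and -0.11 to 0.089 with 1 array left out, positive for 6 of the 12 arrays. Slc1a1 was 0.0075 with median scaling, 0.014 within chip 2 and 0.0089 with the CA2 and CA3 list as a covariate. Slc1a2 was -0.054 within chip 1 and -0.079 to 0.076 with 1 array left out, negative without EtOH 6 or Control 2. The replicate block changed no call of a transporter, and 2 of 6 EtOH arrays correlated best with the Control array of their own number. The covariates of the retrosplenial and CA2 and CA3 lists, the interaction term and the added relations were chosen after seeing the data. Precision is limited by the number of arrays.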
